A study of Homo sapiens with 8 samples.

Results

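NF-κB is a family of transcription factor subunits that are held in check by a set of inhibitor proteins, and 10 of its genes were examined here in cisplatin-resistant and parental ovarian cancer spheroids. They were chosen by name, with earlier results of these data known. The subunit genes are the 5 genes NFKB1, NFKB2, REL, RELA and RELB. The inhibitor genes are the 5 genes NFKBIA, NFKBIB, NFKBIE, NFKBIZ and TNFAIP3. Each has 1 probeset of its own on the array, so the 10 genes are 10 of the 15931 genes measured. Spheroids of OVCAR-8R (OVCAR-8C in the labels, described there as Cisplatin-resistant) were compared with spheroids of OVCAR-8, its Cisplatin-sensitive parent. OVCAR-8 is an ovarian adenocarcinoma cell line, and OVCAR-8R was selected from it by stepwise exposure to rising cisplatin concentrations, to 5 μM at most, so it is a single derived line. Both were maintained in DMEM with 10% FBS and penicillin/streptomycin and were grown as spheroids of 300 μm in agarose molds, and the resistant line is labelled as stably resistant after the drug was withdrawn. Total RNA of 4 spheroid samples of each line was measured on Affymetrix Gene ST arrays for human genes. The sample titles call the 4 samples of a line biological replicates, and p-values here measure only the spread between these samples, part of which may be technical.

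NF-κB subunits bind DNA as pairs. In the canonical arm, inflammatory signals activate the IKK kinase complex, which marks the IκB proteins for destruction and so frees pairs of RELA or REL with the product of NFKB1. In the non-canonical arm, a smaller group of receptors stabilises the kinase NIK, which drives the processing of the NFKB2 precursor and frees its pair with RELB. NFKBIA, NFKBIB and NFKBIE encode the classical IκB proteins that hold the pairs in the cytoplasm, NFKBIZ encodes a nuclear IκB protein that modifies which targets respond, and TNFAIP3 encodes A20, a ubiquitin-editing enzyme that shuts the pathway down upstream of IKK. Several of these inhibitor genes are themselves known NF-κB targets, which forms a negative feedback loop. Arrays measure mRNA, and neither precursor processing nor nuclear entry was measured.

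The subunit genes lie apart in the genome (RefSeq, GRCh38.p14), NFKB1 at chr4:102501359-102617302, REL at chr2:60881574-60931612 and RELA at chr11:65653601-65663857. Of the inhibitor genes, NFKBIZ is at chr3:101827990-101861022, TNFAIP3 at chr6:137866349-137883312, NFKBIE on another part of that chromosome at chr6:44258166-44265551, and NFKBIB at chr19:38899666-38908889, the chromosome that also holds RELB. RefSeq promoter windows (build GRCh38.p14, 250 bases before to 50 bases after a start site) were found for 8 of the 10 genes, all but RELB and NFKBIE. They are shown because NF-κB members are known to be controlled by NF-κB sites of their own. A search of both strands for the κB consensus found matches in 5 of the 8 windows, those of NFKB1, REL, NFKBIA, NFKBIZ and TNFAIP3. The NFKB2, RELA and NFKBIB windows held none, which says only that these letters are not in those 300 bases. The consensus matched 10.8% of all 27305 promoter windows of this length, which are not limited to the measured genes. It matched 16.5% of the 1038 windows of genes called higher in OVCAR-8R spheroids, 11.4% of the 1086 windows of genes called lower, and 1340 of the 10331 windows of genes not called. The TNFAIP3 window lies inside the gene's span given above, so its start site is downstream of the first base of that span. The complete windows of the inhibitor genes TNFAIP3 and NFKBIA, and shorter stretches of the other genes, follow in gene orientation with the consensus matches in capitals.
TNFAIP3 window, chr6:137867009-137867308, plus strand: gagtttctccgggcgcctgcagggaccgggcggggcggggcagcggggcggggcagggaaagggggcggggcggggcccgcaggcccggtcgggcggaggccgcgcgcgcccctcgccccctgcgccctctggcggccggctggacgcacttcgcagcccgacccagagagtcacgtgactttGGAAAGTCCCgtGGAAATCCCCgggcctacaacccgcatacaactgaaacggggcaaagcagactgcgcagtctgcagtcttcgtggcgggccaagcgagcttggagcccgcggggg
NFKBIA window, chr14:35404700-35404999, minus strand: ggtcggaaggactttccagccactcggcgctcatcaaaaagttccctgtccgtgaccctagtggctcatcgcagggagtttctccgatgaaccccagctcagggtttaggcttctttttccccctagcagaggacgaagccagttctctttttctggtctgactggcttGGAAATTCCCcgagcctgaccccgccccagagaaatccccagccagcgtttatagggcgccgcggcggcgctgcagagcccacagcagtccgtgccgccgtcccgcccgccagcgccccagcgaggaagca
NFKB1 stretch, chr4:102501285-102501344, plus strand: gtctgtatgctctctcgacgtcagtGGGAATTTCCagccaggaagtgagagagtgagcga
NFKBIZ stretch, chr3:101827742-101827801, plus strand: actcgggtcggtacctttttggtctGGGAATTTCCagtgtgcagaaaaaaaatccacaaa
REL stretch, chr2:60881502-60881562, plus strand: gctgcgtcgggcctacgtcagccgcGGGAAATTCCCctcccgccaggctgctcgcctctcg
NFKB1 and NFKBIZ carry the same 10 bases, at -49 to -40 in NFKB1 and at -223 to -214 in NFKBIZ, counted from the start site as 0. The single NFKBIA match lies at -81 to -72, and TNFAIP3 has a pair of matches at -67 to -58 and -55 to -46. In REL the matches on both strands overlap in a stretch from -47 to -37. A match of letters is a description of the window and not a measured binding site.

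The NF-κB family was mostly higher in OVCAR-8R spheroids. Of the 10 genes, 6 rose at least 2-fold (NFKB1, NFKB2, RELA, NFKBIA, NFKBIZ and TNFAIP3), none fell by that much and 4 did not pass the threshold (REL, RELB, NFKBIB and NFKBIE). Calling a gene took 2-fold or more and an adjusted p under 0.05 from limma (Benjamini-Hochberg, over the 25628 probesets that passed the filter), and 8.37% of all measured genes were called higher and 8.37% lower by the same rule. Differences are on the log2 scale, resistant minus parental line, with the standard error in parentheses, and each line has 4 arrays. The median difference of the 10 genes was 1.17 on the log2 scale, against -0.01 for all 15931 genes. Because the 10 genes were chosen with earlier results of these data known, the values over all genes give scale only. At an adjusted p under 0.05 and any size of difference, 8 of the 10 were higher and 2 were lower (REL and NFKBIB), where 27.6% of all genes were higher and 30.0% lower (57.6% in either direction). The arrays of the lines did not overlap for any of the 10 genes, which holds for 56.8% of all genes. RNA from whole spheroids does not separate more RNA per cell from more cells that express a gene.

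**Figure D1:**
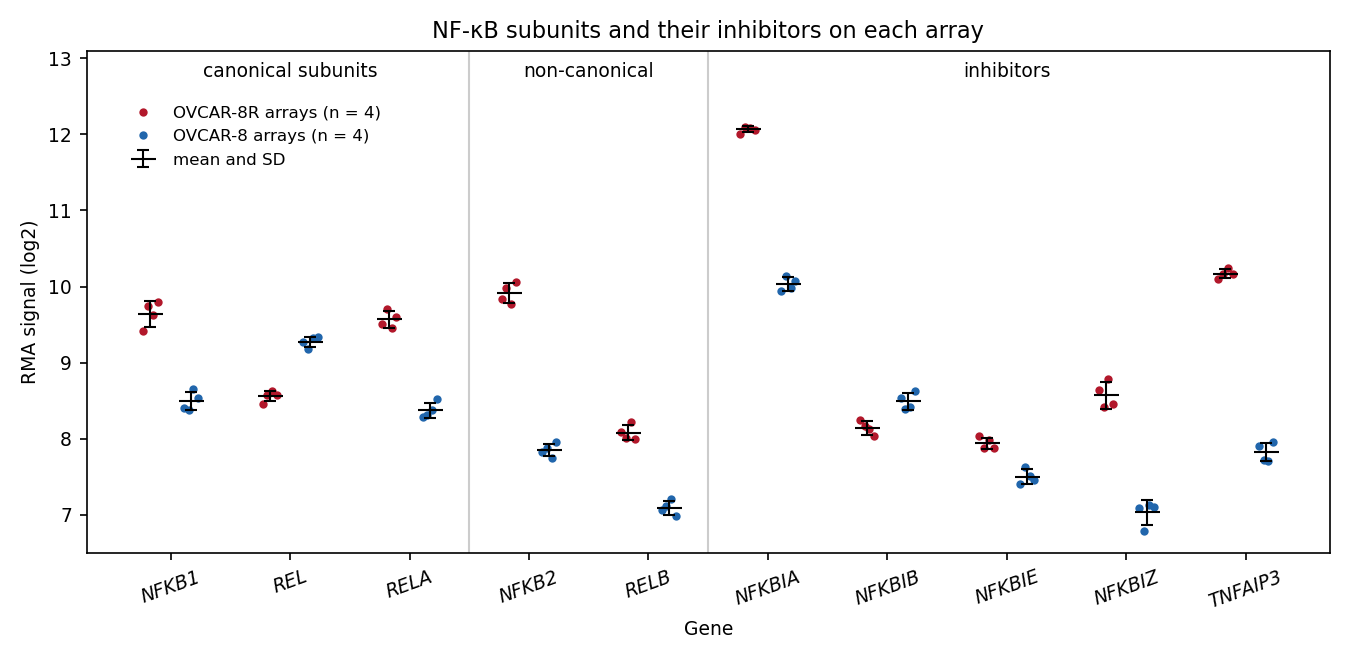
Log2 RMA signal (y axis) of each gene (x axis) on the 4 OVCAR-8R arrays (red, left) and the 4 OVCAR-8 arrays (blue, right), with black bars for each line's mean and SD. The red points lie above the blue points for 8 genes and below them for REL and NFKBIB, and signals of different genes are not comparable because each probeset has its own brightness.

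Of the canonical subunit genes, RELA and NFKB1 rose, and REL was lower by less than 2-fold. RELA encodes p65, the main activating subunit of the canonical pair, and had log2 signals of 9.51, 9.70, 9.46 and 9.60 on the OVCAR-8R arrays and of 8.28, 8.31, 8.37 and 8.52 on the OVCAR-8 arrays. Every resistant array was above every parental array. RELA rose by 1.20 (standard error 0.08, 95% interval 1.01 to 1.38, adjusted p = 1.51e-06), a 2.29-fold difference.

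NFKB1 encodes the precursor of the p50 subunit that pairs with p65. The log2 signals of NFKB1 were 9.41, 9.75, 9.62 and 9.79 on the OVCAR-8R arrays and 8.40, 8.38, 8.65 and 8.53 on the OVCAR-8 arrays. It rose by 1.15 (0.10, 95% interval 0.92 to 1.38, adjusted p = 7.69e-06), or 2.22-fold, with OVCAR-8R array 1 the lowest of its line. RELA and NFKB1 were just past the 2-fold threshold, and neither passed treat, a limma test for a difference larger than 2-fold (adjusted p = 0.231 for RELA and 0.798 for NFKB1).

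REL encodes c-Rel, an activating subunit best known from lymphocytes. REL had log2 signals of 8.45, 8.58, 8.62 and 8.57 on the OVCAR-8R arrays and 9.27, 9.18, 9.32 and 9.33 on the OVCAR-8 arrays, so every resistant array was below every parental array. The difference was -0.72 (0.07, 95% interval -0.88 to -0.56, adjusted p = 1.68e-05), a 1.65-fold lower signal that missed the 2-fold threshold. REL was the only subunit gene lower in OVCAR-8R spheroids at any size of difference.

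Both non-canonical subunit genes had higher signals in OVCAR-8R spheroids, although only NFKB2 was called. NFKB2 (chr10:102394110-102402529) encodes the p100 precursor of p52, which also acts as an inhibitor until it is processed. The arrays gave NFKB2 log2 signals of 9.84, 9.98, 9.77 and 10.06 on the OVCAR-8R arrays and 7.83, 7.88, 7.75 and 7.95 on the OVCAR-8 arrays. It rose by 2.06 (0.09, 95% interval 1.87 to 2.25, adjusted p = 4.51e-08), a 4.16-fold difference and the largest among the 5 subunit genes.

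RELB (chr19:45001464-45038192) encodes the subunit that pairs with p52. Its log2 signals were 8.09, 8.01, 8.22 and 8.00 on the OVCAR-8R arrays and 7.06, 7.11, 7.20 and 6.98 on the OVCAR-8 arrays, with no overlap. The difference of 0.99 (0.08, 95% interval 0.81 to 1.17, adjusted p = 4.02e-06), or 1.99-fold, lay at the 2-fold threshold without reaching it. Leaving out OVCAR-8R array 2 (1.02), OVCAR-8R array 4 (1.02), OVCAR-8 array 3 (1.03) or OVCAR-8 array 2 brought RELB to 2-fold, and it was then called.

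**Figure D2:**
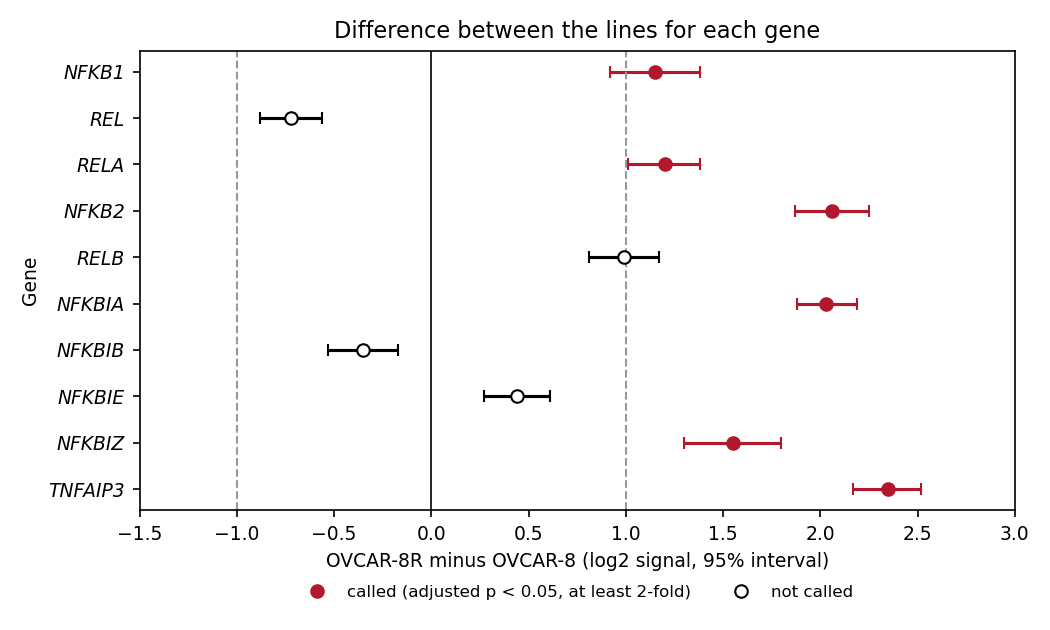
OVCAR-8R minus OVCAR-8 log2 signal (x axis) for each gene (y axis) with its 95% interval from limma and 4 arrays per line. Filled red points were called, from NFKB1 at 1.15 to TNFAIP3 at 2.35, and open points were not, with RELB at 0.99 next to the line. A call took an adjusted p under 0.05 and a difference of at least 2-fold (dashed lines), and was not a test against 2-fold.

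Canonical and non-canonical subunits were compared through the log2 ratio of their signals within each array, which shows whether 2 genes changed unequally and not which is more abundant. NFKB2 minus NFKB1 was 0.43, 0.24, 0.15 and 0.27 on the OVCAR-8R arrays and -0.57, -0.51, -0.90 and -0.57 on the OVCAR-8 arrays. The lines therefore did not overlap, and the ratio was 0.91 higher in OVCAR-8R spheroids (standard error 0.11, two-sided exact permutation p = 0.0286, adjusted 0.0429 over 3 comparisons). The precursor gene of the non-canonical arm rose more than that of the canonical arm.

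The activating subunits gave no such uniform split between the arms. RELB minus RELA was -1.41, -1.69, -1.24 and -1.59 on the OVCAR-8R arrays and -1.22, -1.20, -1.17 and -1.54 on the OVCAR-8 arrays. These overlapped, and the difference of -0.20 (0.13) did not pass the exact permutation test (p = 0.171, adjusted 0.171). RELB minus REL was -0.36, -0.57, -0.40 and -0.57 on the OVCAR-8R arrays and -2.21, -2.06, -2.12 and -2.35 on the OVCAR-8 arrays, a difference of 1.71 (0.08, exact permutation p = 0.0286, adjusted 0.0429). RELB thus differed from REL in its change but was not shown to differ from RELA. The p of 0.0286 is the smallest that 70 splits of 8 arrays can give, and each ratio difference is the single-gene difference of the non-canonical gene minus that of the canonical gene. For RELB minus REL the separation was fixed by the single-gene values, since RELB was above and REL below its parental arrays on every resistant array. The separation of NFKB2 minus NFKB1 was fixed by single-gene values as well. NFKB2 was at least 9.77 and NFKB1 at most 9.79 on the OVCAR-8R arrays. On the OVCAR-8 arrays NFKB2 was at most 7.95 and NFKB1 at least 8.38. The p of 0.0286 therefore adds nothing to the single-gene differences for either pair.

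**Figure D3:**
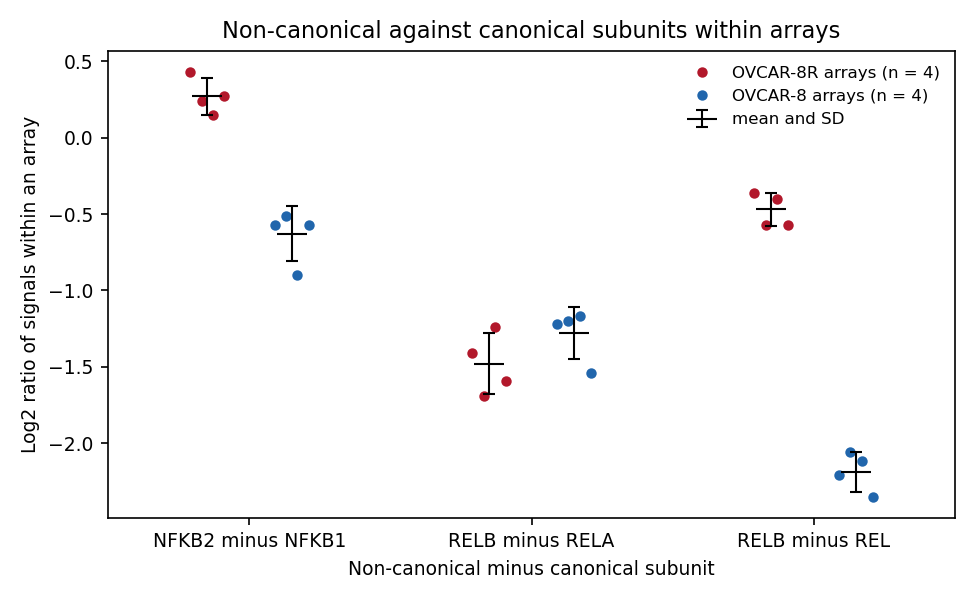
Log2 ratio of a non-canonical to a canonical subunit signal within each array (y axis) for 3 gene pairs (x axis), on 4 OVCAR-8R arrays (red, left) and 4 OVCAR-8 arrays (blue, right), with mean and SD in black. The lines separate for NFKB2 minus NFKB1 and for RELB minus REL and overlap for RELB minus RELA.

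Among the classical IκB genes, NFKBIA rose while NFKBIB and NFKBIE stayed within 2-fold. NFKBIA (chr14:35401513-35404749) encodes IκBα, which is resynthesised after each burst of NF-κB activity. NFKBIA had log2 signals of 12.01, 12.10, 12.09 and 12.06 on the OVCAR-8R arrays and 9.94, 10.14, 9.98 and 10.07 on the OVCAR-8 arrays. It rose by 2.03 (0.07, 95% interval 1.88 to 2.19, adjusted p = 1.45e-08), or 4.10-fold, and its 4 resistant arrays were within 0.09 of each other.

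NFKBIB encodes IκBβ, which is more slowly degraded. Its log2 signals were 8.24, 8.16, 8.13 and 8.03 on the OVCAR-8R arrays and 8.53, 8.39, 8.41 and 8.63 on the OVCAR-8 arrays, a difference of -0.35 (0.08, 95% interval -0.53 to -0.17, adjusted p = 0.00478). NFKBIE encodes IκBε and had log2 signals of 8.03, 7.88, 7.98 and 7.88 on the OVCAR-8R arrays and of 7.41, 7.63, 7.51 and 7.46 on the OVCAR-8 arrays. Its difference was 0.44 (0.08, 95% interval 0.27 to 0.61, adjusted p = 7.67e-04). The 3 classical IκB genes thus had 1 called rise and a difference of either sign below 2-fold.

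NFKBIZ encodes IκBζ, which works in the nucleus with p50 and is needed for a set of secondary response genes such as IL6. NFKBIZ gave log2 signals of 8.64, 8.41, 8.79 and 8.46 on the OVCAR-8R arrays and 7.09, 6.79, 7.13 and 7.10 on the OVCAR-8 arrays. OVCAR-8 array 2 was the lowest of its line, and the lines were still far apart. NFKBIZ rose by 1.55 (0.11, 95% interval 1.30 to 1.80, adjusted p = 1.88e-06), a 2.92-fold difference.

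TNFAIP3 (A20) had the largest difference of the 10 genes. Its log2 signals were 10.10, 10.16, 10.25 and 10.17 on the OVCAR-8R arrays and 7.90, 7.72, 7.71 and 7.95 on the OVCAR-8 arrays. The rise of 2.35 (0.08, 95% interval 2.17 to 2.52, adjusted p = 1.24e-08) was 5.08-fold. Among all other genes measured, the 3 whose log2 profile over the 8 arrays lay closest to that of TNFAIP3, after each was centred on its mean, were ATP2B4, EFEMP2 and PTPRM. Their Euclidean distances were 0.22, 0.22 and 0.24, against a median of 3.36 over all genes, and their own differences were 2.37, 2.32 and 2.38. Profiles were not scaled, so genes at a small distance must have a difference near that of TNFAIP3. Shared control of these genes was not tested.

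The members' spread within a line was small against these differences. The SD of a member over the arrays of a line, pooled over both lines, lay between 0.07 and 0.17, against a median of 0.13 over all genes. OVCAR-8R arrays 1 and 3 deviated together from the mean of their line over all probesets kept (r = 0.427), as did arrays 2 and 4 (r = 0.484). NFKB1, NFKB2 and RELA were lower on arrays 1 and 3 than on arrays 2 and 4, by 0.25, 0.22 and 0.17 in the means, while RELB, NFKBIE and NFKBIZ were higher there, by 0.15, 0.12 and 0.28. Without arrays 2 and 4, RELB was called at 1.07 and 7 members were higher, and without arrays 1 and 3 the members called higher were again 6. Deviations were also shared between the lines. OVCAR-8 array 2 deviated with OVCAR-8R arrays 1 and 3 (r = 0.353 and 0.276) and against arrays 2 and 4 (-0.323 and -0.324). OVCAR-8 array 4 deviated with OVCAR-8R arrays 2 and 4 (0.383 and 0.443) and against arrays 1 and 3 (-0.467 and -0.337). For OVCAR-8 arrays 1 and 3, r lay between -0.144 and 0.165. The part of these shared deviations in the results was not tested otherwise.

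The measured genes of the IKK complex, and of the kinases and partner proteins listed with it, changed by less than 2-fold. None of the 11 measured genes of this list was called, and their median difference was 0.22. TAB1, also on the list, was not analysed here. At 2-fold, 8.37% of all genes were called higher and 8.37% lower. Without the 2-fold requirement, limma gave 5 higher and 4 lower, where 27.6% of all genes were higher and 30.0% lower. The catalytic subunit gene IKBKB (IKKβ) averaged 8.83 ± 0.11 in OVCAR-8R and 7.92 ± 0.13 in OVCAR-8 spheroids on the log2 scale (SD, n = 4 each), a difference of 0.91 (0.09). CHUK (IKKα), the kinase subunit that also serves the non-canonical arm, averaged 9.68 ± 0.07 in OVCAR-8R and 10.46 ± 0.06 in OVCAR-8, a difference of -0.78 (0.07). The regulatory subunit gene IKBKG (NEMO) had a difference of 0.26 (0.10). IKBKB and CHUK thus differed between the lines in opposite directions, both within 2-fold.

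None of the non-canonical arm regulators was called at 2-fold either, with 4 of 6 measured and a median of 0.30. MAP3K14, which encodes NIK, averaged 7.24 ± 0.05 in OVCAR-8R and 6.36 ± 0.05 in OVCAR-8 (SD, n = 4 each), a difference of 0.88 (0.07, adjusted p = 2.21e-06). BIRC2, which encodes a ubiquitin ligase that keeps NIK low, had a difference of 0.56 (0.08), and TRAF3, its adaptor, one of 0.03 (0.08). Without the 2-fold requirement, 2 passed as higher and 1 as lower, where 27.6% of all genes were higher and 30.0% lower. TRAF2 and BIRC3 were not analysed here.

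Of 15 receptors that passed the filter, 5 rose and none fell at 2-fold, with a median of 0.54. The same rule called 8.37% of all genes higher and 8.37% lower. TLR1 and TLR4, dim in both lines, were left out by the filter, and the median over all 17 receptors with a probeset was 0.18. TLR2 and TLR3 passed only through OVCAR-8R and IL18R1 only through OVCAR-8. Over the 12 receptors above the lowest quartile in both lines, 5 rose and none fell, with a median of 0.74. TNFRSF9 (4-1BB) rose by 2.40 (0.10), LTBR, the lymphotoxin β receptor that feeds the non-canonical arm, by 2.07 (0.11), TNFRSF12A, the receptor of TWEAK, by 1.66 (0.09) and TNFRSF1A, the main TNF receptor, by 1.48 (0.08). LTBR averaged 8.79 ± 0.06 in OVCAR-8R and 6.73 ± 0.23 in OVCAR-8 spheroids (SD, n = 4 each).

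Of 16 measured adaptor and linear ubiquitin ligase genes, 4 rose and 1 fell, with a median of 0.48, where 8.37% of all genes rose and 8.37% fell. IRAK3, a brake on IL-1 and Toll-like receptor signalling, had the largest difference, 2.53 (0.25), and its OVCAR-8 signal lay in the lowest quartile, so it passed the filter only through OVCAR-8R and its size is best read as a lower bound. Without it, 3 of 15 rose and 1 fell. IRAK2 rose by 1.76 (0.10) and MYD88, the shared adaptor of those receptors, by 1.44 (0.09). BCL10 rose by 1.07 (0.10), a call lost without OVCAR-8 array 2 (0.98) and with treat. TRAF5 fell by 1.35 (0.11), a call lost with treat (adjusted p = 0.0635).

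Of the 8 listed deubiquitinase and A20 partner genes, all but TNIP3 passed the filter. Of these 7, 3 rose and none fell at 2-fold, with a median of 0.76, where 8.37% of all genes rose and 8.37% fell. TNIP1, which encodes the A20-binding protein ABIN1, averaged 9.59 ± 0.10 in OVCAR-8R and 7.27 ± 0.25 in OVCAR-8 (SD, n = 4 each) and rose by 2.32 (0.12, adjusted p = 2.17e-07). CYLD, a further deubiquitinase that restrains the pathway, rose by 1.16 (0.06), and RNF11, a member of the A20 complex, by 1.13 (0.09), and neither passed treat (adjusted p = 0.204 and 0.814).

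Of 8 other IκB-like proteins and nuclear brakes, 1 fell and none rose at 2-fold, with a median of -0.08. Among all genes, 8.37% fell and 8.37% rose by that rule. NKRF, a nuclear repressor of NF-κB promoters, fell by 1.42 (0.15), which did not pass treat (adjusted p = 0.116). The 4 measured genes of the ligase machinery that destroys IκB lay between -0.61 and 0.10 and none was called. At any size 2 of them were lower by limma, as were 30.0% of all genes.

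**Figure D4:**
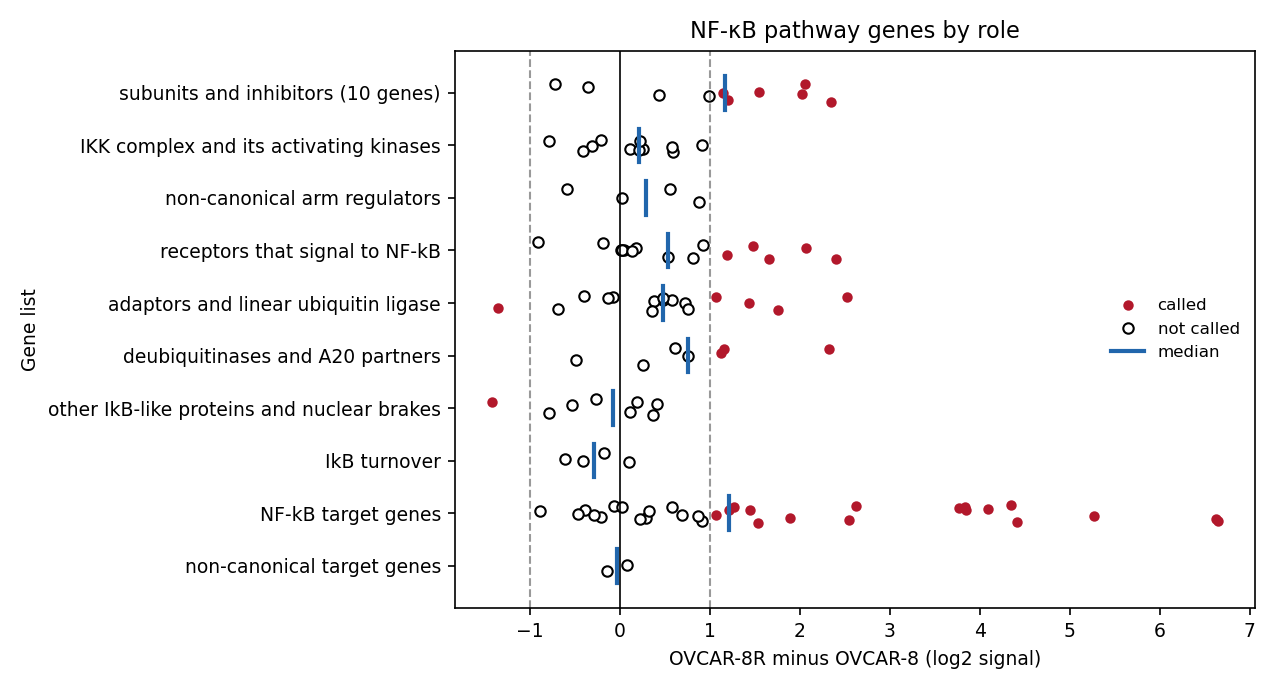
OVCAR-8R minus OVCAR-8 log2 signal (x axis) of each measured gene, by role in the pathway (y axis), with medians as blue bars and 2-fold as dashed lines. Red points were called, among them 6 of the 10 subunit and inhibitor genes, 17 of 31 target genes and none of 11 IKK and activating kinase genes. Over all genes, 8.37% were called higher and 8.37% lower.

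Of 35 listed NF-κB target genes outside the family, 31 passed the filter. Of these, 17 rose and none fell at 2-fold, with a median difference of 1.22. Over all genes, 8.37% rose and 8.37% fell at 2-fold, and 27.6% were higher and 30.0% lower at any size. The target list was chosen with earlier results of these data known. CXCL10, SELE and SAA1 were left out as dim in both lines, CSF2 was not analysed here, and the median over all 34 targets with a probeset was 0.99. IL1A, IL1B, BCL2A1 and TNFAIP6 passed only through OVCAR-8R and VCAM1 only through OVCAR-8. Over the 26 targets above the lowest quartile in both lines, 14 rose and none fell, with a median of 1.15. The largest differences were those of the cytokine genes IL1B (6.65) and IL6 (6.62), the adhesion molecule gene ICAM1 (5.27) and the neutrophil attractant gene CXCL8 (4.41). The sizes of IL1A, IL1B and BCL2A1 are lower bounds for the same reason. ICAM1 averaged 11.27 ± 0.07 in OVCAR-8R and 6.0 ± 0.28 in OVCAR-8 (SD, n = 4 each). PTGS2, which encodes the prostaglandin enzyme COX-2, had a difference of -0.89 (0.07), GADD45B one of -0.46 (0.07) and the chemokine gene CCL2 one of -0.39 (0.11), and without the 2-fold requirement 23 targets passed as higher and 4 as lower. Of 5 target genes of the non-canonical arm, chemokines and a cytokine of lymphoid organs, only CCL19 and CCL21 passed the filter. The other 3 lay in the lowest quartile in both lines. CCL19 averaged 5.35 in OVCAR-8R and 5.26 in OVCAR-8, just above the filter's limits of 5.11 and 5.16, so its small difference says little. The difference was 0.08 for CCL19 (95% interval -0.12 to 0.29) and -0.14 for CCL21 (95% interval -0.46 to 0.18), and neither passed the test.

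Defining markers were used to check the labels and to look for other cells, since REL and RELB are abundant in leukocytes. Of 5 epithelial markers, KRT8 (2.97), KRT18 (1.90) and EPCAM (2.01) rose, KRT19 (0.08) did not pass, and CDH1 (-0.23) was lower by less than 2-fold. The Müllerian and ovarian carcinoma markers were mixed, with a median of 0.07 over 5 genes. PAX8 (3.77) and MSLN (3.83) rose, MUC16 (0.07) and ESR1 (0.06) did not pass, and WT1 (-0.86) was lower on every resistant array but within 2-fold (limma adjusted p = 2.02e-04). Of 5 leukocyte markers on the array, PTPRC (CD45), CD3E and LYZ lay in the lowest quartile in both lines, ITGAM did not pass (0.16) and CD68, a lysosomal protein gene, rose by 2.52. The summed linear signal of the 5 was 2363 to 2549 in OVCAR-8R and 503 to 585 in OVCAR-8. Without CD68 it was 120 to 133 in OVCAR-8R and 118 to 124 in OVCAR-8. Of 5 fibroblast markers, COL1A1 rose (2.04) and PDGFRB was higher by less than 2-fold (0.60), while the other 3 did not pass at any size. Their summed signal was 965 to 1077 in OVCAR-8R and 406 to 471 in OVCAR-8. None of 3 endothelial markers was called, with differences from 0.11 to 0.16 and summed signals of 135 to 159 in OVCAR-8R and 127 to 134 in OVCAR-8.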

How the data were processed

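RNA of 4 OVCAR-8R and 4 OVCAR-8 spheroid samples was measured on Affymetrix Gene ST arrays for human genes. Per the labels, the authors ran RMA with Expression Console from Affymetrix, and the deposited table holds 1 linear intensity for each of 33297 probesets and 8 arrays. The quantile normalization in RMA gives every array nearly the same distribution, so a global shift between the lines could not be seen. Median log2 signals ran from 6.68 to 6.73 in OVCAR-8R and from 6.67 to 6.73 in OVCAR-8. Log2 was taken first. Of the probesets, 19460 are annotated to 1 gene, 1754 to several and 12083 to none. Following the study's filter, a probeset was dropped if its mean lay in the bottom 25% for OVCAR-8R (log2 under 5.11) and also for OVCAR-8 (under 5.16), which kept 25628, and a gene is represented by its brightest probeset. Differences were fitted with limma (version 3.58.1, R version 4.3.3) without a replicate block and adjusted over all probesets kept. In a test on simulated data (25628 probesets, both lines), 95 of 100 changes of 1.5 and 93 of 100 changes of 2 on the log2 scale were recovered. The simulation changed only these probesets and drew independent noise. In the data 57.6% of genes differed at any size and some arrays deviated together, so recovery there may differ. Precision is limited by the number of arrays, 4 per line. The methods name Student's t-test, which was run as an alternative beside other filters, thresholds, normalizations, array weights, averaging a gene's probesets, a fit blocked on replicate number and fits without single arrays. Ratios of subunit signals within an array were compared with exact permutation tests. The members and lists were chosen with earlier results of these data known. The text names all 10 members, up to 4 called genes per list and direction with the largest differences, the IKK subunits and the regulators of NIK. The genes PTGS2, GADD45B, CCL2, CCL19 and CCL21, and those named for a dim signal, were named after their values were seen. A protein sequence table was not used here.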

Additional observations from a re-analysis of the deposited data

Results flagged for a closer look

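In 7 of 72 groups of 4 arrays checked, 1 array stood apart from the other 3 by Dixon's criterion for the gap relative to the range, where chance gives about 1 in 20. NFKBIZ was 6.79 on OVCAR-8 array 2 and 7.09 to 7.13 on the other OVCAR-8 arrays. The ratio NFKB2 minus NFKB1 was -0.90 on OVCAR-8 array 3 and -0.57 to -0.51 on the others of that line, and RELB minus RELA was -1.54 on OVCAR-8 array 4 and -1.22 to -1.17 on the others. Among pathway genes, CHUK was 9.57 on OVCAR-8R array 1 and 9.71 to 9.73 on the other OVCAR-8R arrays, CYLD was 9.62 on OVCAR-8R array 1 and 9.72 to 9.74 on the others, and ICAM1 was 11.38 on OVCAR-8R array 2 and 11.23 to 11.24 on the others. IRAK3 was 4.10 on OVCAR-8 array 4 and 4.56 to 4.58 on the others, in the lowest quartile of signal. Causes were not tested.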

How the results depend on the processing

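Of 230 refits of single members, 219 kept the call. The exceptions were NFKB1 and RELA with treat, the RELB calls without some arrays, and REL, RELB, NFKBIB and NFKBIE once the 2-fold requirement was dropped. The count of members called higher was between 4 (treat) and 8 (any size), and 6 or 7 with single arrays left out. The count called lower was 0 except at any size of difference, where it was 2, and 0 with each array left out. Over all probesets, 1819 were higher and 1856 lower, 1059 and 832 with treat, and 6009 and 7034 at any size. With single arrays left out the counts were 1751 to 1879 and 1752 to 1991. Replicate numbers were not taken as pairs, since same-numbered arrays of both lines deviated with r of 0.165, -0.323, -0.0515 and 0.443. Some arrays with different numbers deviated together across the lines, such as OVCAR-8R array 1 and OVCAR-8 array 2 (r = 0.353), so a shared structure that does not follow the numbers remains. With a replicate block the members called higher were 6 and lower 0. As pairs, NFKB2 minus NFKB1 (0.91) and RELB minus REL (1.71) reached an exact permutation p of 0.125, the smallest that 4 pairs allow, so their calls ended there. With single arrays left out NFKB2 minus NFKB1 was 0.82 to 0.95, RELB minus RELA -0.29 to -0.13 and RELB minus REL 1.66 to 1.75. Leaving out OVCAR-8R arrays 1 and 3, or 2 and 4, and counting only list genes above the lowest quartile in both lines, were chosen after seeing the data. Of 270 counts for the pathway lists under alternatives, 17 moved by over 1.5 times, all of them with treat or without the 2-fold requirement. Signals in the lowest quartile limit the sizes of IL1A, IL1B, BCL2A1 and IRAK3.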
